A study of Mus musculus with 2 samples.

Results

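The 8 genes described here are Il1a, Il1b, Il1rn, Il1r1, Il1r2, Il18, Il18bp and Nlrp3, taken by symbol from the 56941 features of single-cell RNA-seq count matrices. All 8 were detected in both libraries, with between 3222 UMIs (Il18) and 192770 UMIs (Il1b) in the retained cells, a UMI being the molecular tag that counts 1 captured mRNA molecule. The cells came from liver metastases in C57BL/6 mice of 6 to 8 weeks, 2 weeks after MC38-LM3b cells, a strongly metastatic derivative of the MC38 mouse colon carcinoma line, were injected into the spleen. In the Ctrl library the tumor cells carried a scrambled hairpin (shScramble), and in the KD library they carried a hairpin against SLAMF3, the product of the mouse gene Ly9. The lesions of 3 mice were pooled before each library was made, and CD45+ cells were selected, so the comparison rests on 1 library against 1 library and no test is possible. Cells of 1 library are not replicates, and all intervals below are exact 95% intervals that cover counting error only.

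IL-1α and IL-1β, encoded by Il1a and Il1b, bind the receptor IL-1R1 and switch on NF-κB dependent inflammatory genes. Il1rn encodes the receptor antagonist that occupies IL-1R1 without signalling, and Il1r2 encodes a decoy receptor that binds the cytokines without transmitting a signal. NLRP3 is a sensor that assembles the inflammasome, in which caspase-1 cuts the precursors of IL-1β and IL-18 into their active forms, and IL-18 is neutralised by the soluble binding protein encoded by Il18bp. In the liver Kupffer cells, the resident macrophages, are a well known source of IL-18, and neutrophils and inflammatory macrophages are well known sources of IL-1β. These data measure mRNA, and they carry no measure of cleavage or secretion of the cytokines.

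Sequence is shown for the hairpin that separates the groups and for the start regions of 4 of the 6 members called lower in KD granulocytes. The start regions of the other members called lower there, Il1rn and Il18, are not shown. The hairpin target, spelled as the study lists it, matched the transcripts of Ly9 exactly (GRCm38 transcripts) and those of 0 of the 8 members.

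shRNA-SLAMF3#2 target: caccctaatctgcactgtaaa

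The start regions are the 250 bases before the annotated start, from RefSeq GRCm38.p6, an older build than the GRCm39 named for the count files. All 8 members were found in the RefSeq table by symbol. Il1a, Il1b and Il1rn lie on chromosome 2, Il1r1 and Il1r2 on chromosome 1, Il18bp on chromosome 7, Il18 on chromosome 9 and Nlrp3 on chromosome 11. Capitals mark the matches on either strand to an ETS-type site (GAGGAA), a C/EBP site (TTGCNNAA), an AP-1 site (TGANTCA) or the NF-κB consensus. The shorter letters GGAA were not searched.

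Il1a, chr2:129309973-129310222, minus strand: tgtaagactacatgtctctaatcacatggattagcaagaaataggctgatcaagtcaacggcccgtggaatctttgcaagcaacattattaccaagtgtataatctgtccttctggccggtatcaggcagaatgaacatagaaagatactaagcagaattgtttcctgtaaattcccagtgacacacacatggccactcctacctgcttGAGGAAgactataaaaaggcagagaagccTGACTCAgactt

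Il1b, chr2:129371140-129371389, minus strand: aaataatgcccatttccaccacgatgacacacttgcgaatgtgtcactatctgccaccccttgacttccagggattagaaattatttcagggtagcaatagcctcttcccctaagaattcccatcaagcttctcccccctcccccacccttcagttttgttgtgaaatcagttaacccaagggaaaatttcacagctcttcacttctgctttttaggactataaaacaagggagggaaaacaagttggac

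Il18bp, chr7:102018233-102018482, minus strand: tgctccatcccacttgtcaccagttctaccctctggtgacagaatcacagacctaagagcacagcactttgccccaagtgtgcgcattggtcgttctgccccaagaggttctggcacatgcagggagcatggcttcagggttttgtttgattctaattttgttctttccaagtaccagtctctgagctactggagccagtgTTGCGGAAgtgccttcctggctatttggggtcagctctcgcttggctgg

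Nlrp3, chr11:59542436-59542685, plus strand: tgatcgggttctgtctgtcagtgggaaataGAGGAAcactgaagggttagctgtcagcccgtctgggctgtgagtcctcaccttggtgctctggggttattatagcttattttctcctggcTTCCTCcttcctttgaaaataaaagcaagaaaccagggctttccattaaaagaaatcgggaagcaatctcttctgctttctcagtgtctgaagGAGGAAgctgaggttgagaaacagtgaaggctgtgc

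The Il1a window held 1 ETS-type match, at position -41 from the start, and 1 AP-1 match, at position -12, which did not overlap. The Il1b window held none of these letters, the Il18bp window held 1 C/EBP match at position -49, and the Nlrp3 window held 3 ETS cores. Nlrp3 has another annotated start, whose window held 0 ETS-type matches and 1 NF-κB match at position -186. Among the windows not shown, Il1rn had an AP-1 match at position -141 for 1 of its annotated starts, and the Il18 window held none of these letters. Of 32851 windows of the same length over the RefSeq genes, 23.3% held the ETS-type match, 9.56% the C/EBP match, 7.25% the NF-κB match and 6.75% the AP-1 match, so each of these motifs is common before gene starts. A match is a description of the sequence and not evidence of a bound factor.

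Of 21359 deposited cells, 9814 Ctrl and 10185 KD cells passed the study's limits, with a median of 5411.5 and 4989 UMIs, and 27 cell barcodes occurred in both libraries. Clusters were made without the 8 members and their pathway genes among the variable genes and were named from marker genes. The macrophage class, monocytes included, held 4119 Ctrl and 3083 KD cells, and the granulocyte class held 776 and 2221 cells. In spite of the CD45 selection, 150 and 647 cells were endothelial-like and 161 and 95 cells were tumor- or fibroblast-like, with Ptprc, the gene of CD45, at 98.4 and 125 CPM in the endothelial class beside 937 and 1076 CPM in T cells. Ly9 was measured at 21.0 CPM in Ctrl and 18.8 CPM in KD over all cells. Host cells carry no hairpin, and in the tumor- or fibroblast-like class Ly9 had 12 and 7 UMIs, so these libraries give no check of the knockdown. RNA of granulocyte marker genes was more abundant outside granulocytes in KD: the summed level of 9 markers, all detected, was 466 CPM in Ctrl and 2110 CPM in KD macrophages, and 63.1 and 745 CPM in T cells. Its part in the results below was not tested.

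Levels are given as CPM, the UMIs of a gene per 1000000 UMIs of the cell class in that library, and a gene was called different when it had at least 50 UMIs in the class and its level differed at least 1.5-fold. The members stood apart between the libraries mainly in granulocytes. There 6 of the 7 members with enough UMIs were lower in KD and 0 were higher, beside 15.0% of all 7185 measured genes called lower, 21.0% called higher and 35.9% in either direction. The median log2 ratio of KD to Ctrl was -1.48 over these members and 0.14 over all genes of the class. The makeup of the class differed, with 55.7% interferon-like cells in Ctrl and 5.49% in KD. Mature-like cells, led by Prok2, were 2.58% and 27.9%, and with 20 Ctrl cells they did not enter the mean that follows. An unweighted mean of the log2 ratios was taken over the 3 sub-clusters that had 50 or more cells per library. By that mean 3 members (Il1a, Il1rn and Il18) were lower by at least 1.5-fold, while Il1b (-0.29), Il18bp (-0.55) and Nlrp3 (-0.56) were not. Il18 had only 5 to 49 UMIs per library in these sub-clusters, and its interval included 0 in each. Il1a had -1.47 (-2.30 to -0.65) in cells led by Lypd6b and 0.16 (-0.59 to 1.03) in cells led by Saa3, from 29 and 15 Ctrl UMIs. No share over all genes is set beside the count of 3. In macrophages 2 of 8 members were lower and 0 were higher, where 16.0% of all genes were called (6.43% higher and 9.58% lower), and the medians were -0.17 and -0.03. A count of 2 among 8 members is small, and whether it exceeds the share over all genes was not tested. In conventional dendritic cells (cDCs) 1 of 7 members was higher and 2 were lower, against 11.9% of all genes (6.48% higher and 5.44% lower). In T cells 2 of 8 were higher and 0 lower, against 11.4% of all genes (6.33% higher and 5.08% lower). In the endothelial-like class 1 was higher and 1 lower of 7, against 19.3% (9.69% higher and 9.62% lower). The remaining classes had few members with 50 UMIs. In NK cells 1 of 2 was higher (10.5% of all genes called, 4.95% higher and 5.58% lower), and in B cells 1 of 2 was higher (11.3%, 4.97% higher and 6.34% lower). In the tumor- or fibroblast-like class 1 of 5 was lower (23.8%, 5.60% higher and 18.2% lower), and in plasmacytoid dendritic cells 0 of 1 was called (15.9%, 6.51% higher and 9.39% lower). Over all cells together 2 members were higher and 2 lower of 8, against 24.1% (12.3% higher and 11.8% lower), a figure that also moves with the share of each class in the library.

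**Figure D1:**
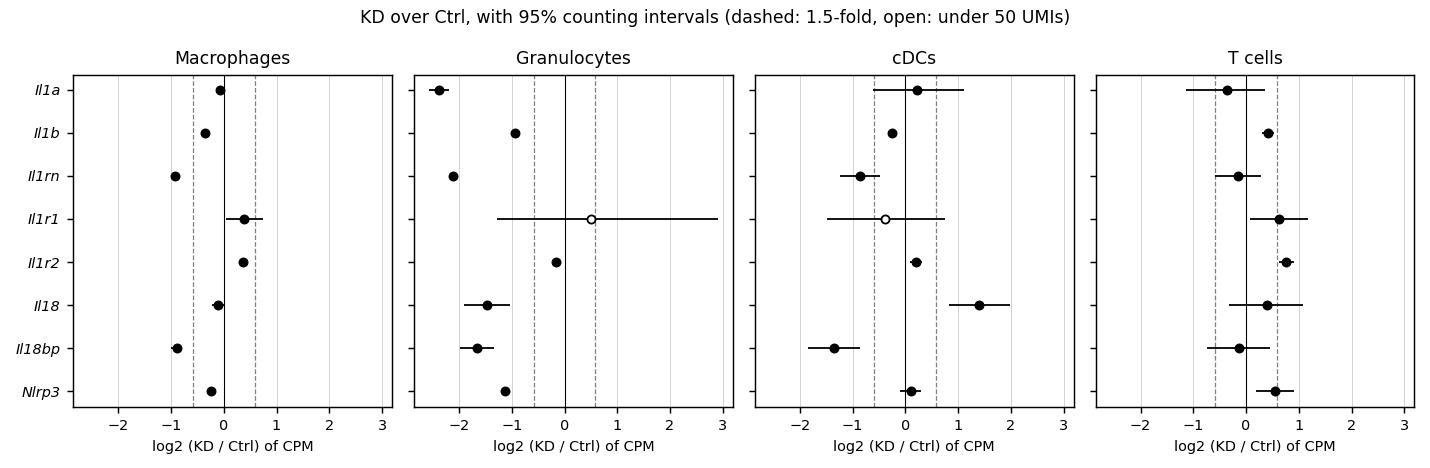
Log2 ratio of KD to Ctrl CPM of each member in macrophages, granulocytes, cDCs and T cells, with exact 95% intervals for counting error, dashed lines at 1.5-fold and open points where a member had under 50 UMIs. In granulocytes 6 members lie below the lower line, from Il1a at -2.38 to Il1b at -0.94, while Il1r2 lies at -0.16, and in macrophages Il1rn (-0.93) and Il18bp (-0.89) lie below it.

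Il1b was by far the most abundant member, and granulocytes had the highest level of it. Its level in granulocytes was 9601 CPM (9459 to 9744) in Ctrl and 4989 CPM (4938 to 5041) in KD, a log2 ratio of -0.94 (-0.97 to -0.92), or -0.29 averaged within sub-clusters. Macrophages were at 2597 CPM in the Ctrl and 2019 CPM in the KD library, and cDCs at 1429.7 and 1198 CPM. In both libraries the order was granulocytes, macrophages, cDCs, and neighbours in that order did not overlap in their intervals. After each cell was thinned to 1500 UMIs, a step that left out 745 Ctrl and 593 KD cells with fewer, Il1b was seen in 96.5% of Ctrl and 90.8% of KD granulocytes, and unthinned in 97.4% and 93.8%. In B cells, used here as a reference class, thinned shares were 11.2% and 8.91% (unthinned 18.8% and 14.7%), and the level was 72.5 and 73.6 CPM. Their median depths were 2562 and 2583 UMIs beside 2144 and 2809 UMIs in granulocytes. The T cell shares, 5.44% and 6.26% thinned, were below those in B cells, while the T cell level was 63.8 CPM in Ctrl and 85.3 CPM (79.9 to 90.9) in KD. Of the T cell Il1b UMIs, 60.3% in Ctrl and 71.4% in KD lay in a sub-cluster of 92 and 49 cells led by S100a9. What part of the Il1b RNA in B and T cells is background was not tested. Because granulocytes made up 7.91% of Ctrl and 21.8% of KD cells, they held 18.2% of the Ctrl library's Il1b UMIs and 37.3% of those of the KD library. Macrophages held 71.6% and 50.1%. Over all cells Il1b was at 1487 and 1576 CPM, close in both libraries although its level was lower in KD within both of its main classes.

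Il1a followed another pattern. Its level in macrophages was 106 CPM (103 to 110.4) in Ctrl and 101 CPM (97.5 to 106) in KD, with overlapping intervals and a log2 ratio of -0.07 (-0.15 to 0.01). In granulocytes it was 281 CPM (257 to 306) in Ctrl and 53.8 CPM (48.6 to 59.4) in KD, a log2 ratio of -2.38 (-2.58 to -2.19), the lowest of the members in any class with at least 50 UMIs. The granulocyte class thus had the higher Il1a level in Ctrl and the lower one in KD. The share of granulocytes with an Il1a UMI was 21.6% and 7.25%, and 19.0% and 5.20% after thinning, while it was 0 of 272 Ctrl B cells, which allows a share of cells with a UMI of up to 1.10% (3 cells of the total), and 7 of 871 KD B cells (0.804%). Endothelial-like cells also held Il1a, at 138 CPM (118 to 162) and 109 CPM (99.1 to 119), in 20.3% and 13.8% of thinned cells. Kupffer-like cells, 48 in Ctrl and 82 in KD and too few for a ratio, held 295 CPM (246 to 352) and 127 CPM (100.3 to 159). The Ctrl Kupffer-like and granulocyte levels of Il1a overlapped in their intervals. cDCs, which held Il1b at over 1000 CPM, held Il1a at 6.60 and 7.68 CPM.

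**Figure D2:**
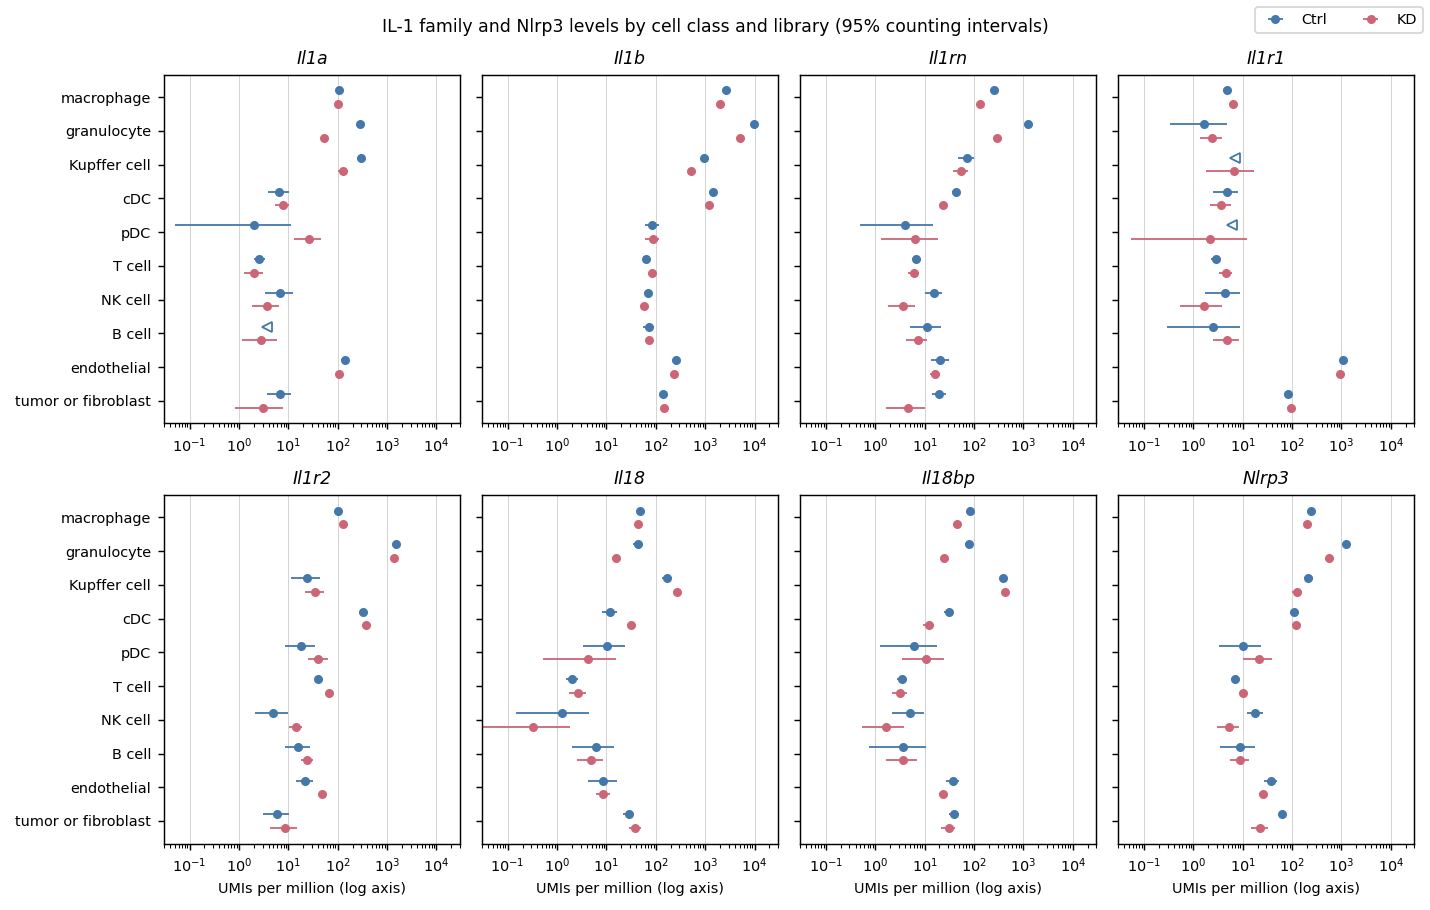
CPM of each member by cell class on a log axis, with Ctrl and KD points and exact 95% intervals for counting error, and an open triangle at the level of 3 UMIs where a class had 0. Il1b, Il1r2, Nlrp3 and Il1rn peak in granulocytes, Il1r1 in endothelial-like cells, and Il18 and Il18bp in Kupffer-like cells.

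Il1rn, the antagonist, was lower in KD in all 3 of the main myeloid classes. Its level in granulocytes was 1249.7 CPM (1199 to 1302) in Ctrl and 289.7 CPM (277 to 302) in KD, a log2 ratio of -2.11 (-2.20 to -2.02). In macrophages it was 253 CPM (247 to 259) and 133 CPM (128 to 137), a log2 ratio of -0.93 (-0.99 to -0.87), and in cDCs 42.5 and 23.4 CPM, a log2 ratio of -0.86 (-1.24 to -0.48). With classes assigned cell by cell from marker sums, the cDC ratio was -0.09, below the call. Granulocytes stood highest and macrophages next in both libraries, and even the KD granulocyte level lay above the Ctrl macrophage level. Thinned shares of cells with an Il1rn UMI were 60.4% and 28.0% of granulocytes, 22.9% and 12.7% of macrophages, and 1.66% and 1.25% of B cells. Unthinned, the granulocyte shares were 67.9% and 39.4%.

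The balance of Il1b to its antagonist can be read as UMIs of Il1b per UMI of Il1rn within a class, where the capture of each mRNA is shared by both libraries. In granulocytes the ratio was 7.68 in Ctrl and 17.2 (16.5 to 18.0) in KD. In macrophages it was 10.3 (10.0 to 10.5) and 15.2 (14.7 to 15.8), and in cDCs 33.6 and 51.1. In these 3 classes the KD library had more Il1b per Il1rn even though both mRNAs were lower, except that with cDCs assigned cell by cell the log2 ratio was -0.24 for Il1b and -0.09 for Il1rn, which turns the cDC direction. In Kupffer-like cells the ratio was 13.2 (9.10 to 19.8) and 9.55 (6.66 to 14.1), with overlapping intervals. Il1b per UMI of Il1a was 34.2 in Ctrl and 92.7 in KD granulocytes, but 24.4 and 19.9 in macrophages.

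**Figure D3:**
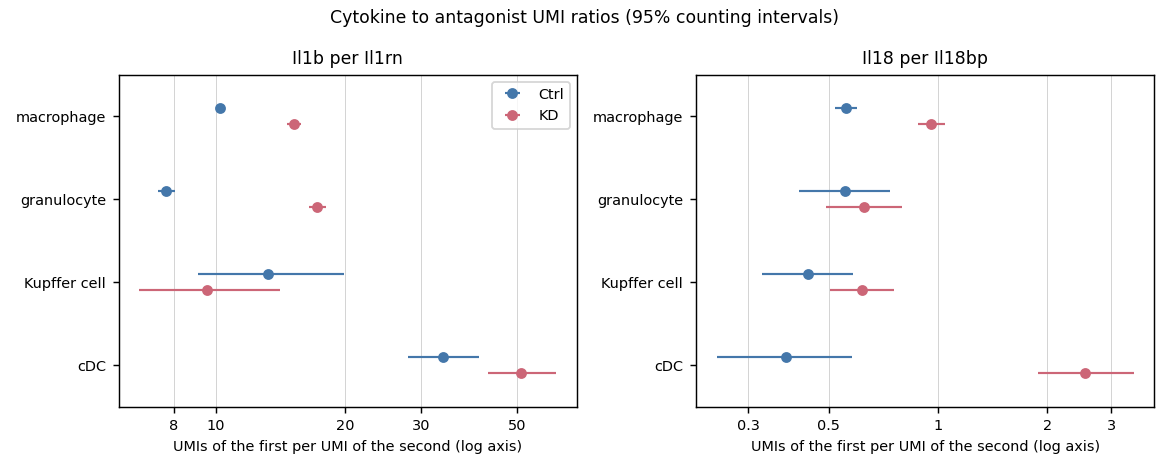
UMIs of Il1b per UMI of Il1rn (left) and of Il18 per UMI of Il18bp (right) by myeloid class on log axes, with exact 95% intervals for counting error. KD lies above Ctrl for Il1b per Il1rn in granulocytes, macrophages and cDCs, and for Il18 per Il18bp the gap is 0.381 to 2.54 in cDCs.

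The signalling receptor and the decoy receptor had their highest levels in different cell classes. Il1r1, which encodes the signalling receptor, was an endothelial gene here, at 1057 CPM (998 to 1118) in Ctrl and 924 CPM (895 to 953) in KD, a log2 ratio of -0.19 (-0.29 to -0.10). Endothelial-like cells held 1214 of the 1606 Ctrl UMIs of Il1r1 and 3992 of the 4377 KD UMIs, and thinned shares of cells with a UMI were 70.7% and 63.9% (unthinned 80.0% and 81.5%). The level over all cells was 25.0 CPM in Ctrl and 70.9 CPM in KD, beside 150 and 647 endothelial-like cells. Tumor- or fibroblast-like cells came next, at 81.3 CPM (69.4 to 94.7) and 95.7 CPM (79.7 to 114). Macrophages held 4.82 and 6.30 CPM of Il1r1, granulocytes held 3 and 17 UMIs in all, and B cells held 2 and 12 UMIs. Few cells held both receptors: after thinning, 6 Ctrl and 7 KD macrophages held a UMI of both. Il1r2 was seen in 26.1% of Ctrl macrophages with Il1r1 and 10.5% of those without (23.3% and 14.5% in KD), but only 23 Ctrl and 30 KD cells held Il1r1. The shares with both were 0.157% (0.058 to 0.341) in Ctrl and 0.238% (0.096 to 0.490) in KD. Their intervals included the products of the single shares, 0.064% and 0.148%, so co-occurrence beyond those products is not resolved.

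Il1r2, which encodes the decoy, was a granulocyte gene, and of the 7 members measured there it differed least between the libraries. Its granulocyte level was 1528 CPM (1472 to 1586) in Ctrl and 1366 CPM (1339 to 1393) in KD, a log2 ratio of -0.16 (-0.22 to -0.10), in 77.6% and 78.7% of thinned cells. cDCs followed at 333 CPM (311 to 355) and 382 CPM (365 to 399), in 28.5% and 31.1% of thinned cells, and macrophages between 96.2 and 104 CPM by their interval in Ctrl and at 129 CPM (125 to 134) in KD. The KD class level was thus slightly lower in granulocytes and slightly higher in cDCs and macrophages, within 1.5-fold in each, but averaged within granulocyte sub-clusters the log2 ratio was 0.16. An S100a9-led macrophage sub-cluster of 44 Ctrl and 123 KD cells, at 526 and 590 CPM, held 6.6% and 19.1% of the macrophage Il1r2 UMIs. Over 12 alternatives the macrophage log2 ratio ran from 0.21 to 0.50. B cells held 16.0 and 24.1 CPM, with thinned shares of 2.07% and 3.26% (unthinned 3.68% and 5.05%). Over all cells Il1r2 was at 119.9 CPM in Ctrl and 272 CPM in KD, and granulocytes held 36.0% and 59.2% of its UMIs.

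In T cells Il1r2 was the member with the most RNA after Il1b. The class held 39.9 CPM (37.5 to 42.5) in Ctrl and 67.9 CPM (63.1 to 72.9) in KD, a log2 ratio of 0.77 (0.63 to 0.90), which together with Il1r1 (0.62, 0.07 to 1.17) made up the 2 members called higher there. The mean of the log2 ratios within T cell sub-clusters was -0.29 for Il1r2, over sub-clusters that differed in direction, from -1.29 in the Ccl5-led to 0.46 in the Ung-led cells. For Il1r1 it was -0.01, from only 2 sub-clusters, which had 2 to 5 UMIs in each library, so it says little of that gene. A T cell sub-cluster led by Tnfsf8, Cd4 and Cd40lg, a set of genes of CD4 T cells, held 151 Ctrl and 353 KD cells, and its Il1r2 level was 164 and 204 CPM, a log2 ratio of 0.32 (-0.03 to 0.67). It held 9.0% of the T cell Il1r2 UMIs in Ctrl and 41.9% in KD. Treg-like cells, named from Foxp3 and related genes, had 119.5 and 103.7 CPM, and the sub-cluster led by Ccl5 had 13.8 and 5.6 CPM. In the Tnfsf8-led cells there were 3.56 (2.26 to 5.79) UMIs of Il1r2 per UMI of Il1b in Ctrl and 5.74 (4.29 to 7.81) in KD, beside 0.159 and 0.274 in granulocytes and 0.220 and 0.328 in B cells. The Tnfsf8-led cells thus held more Il1r2 per Il1b than granulocytes or B cells did. Other T cell sub-clusters did so too: Treg-like cells had 6.27 and 2.39, cycling-like 1.43 and 1.40, Ung-led 1.32 and 3.11, and an unnamed one 1.34 and 0.806. The Ccl5-led cells had 0.303 and 0.125. The sub-cluster led by S100a9, a granulocyte gene, had 0.140 and 0.262, near the granulocyte ratio, and its 92 and 49 cells held 60.3% and 71.4% of the Il1b UMIs of the T cell class. The NK class, which also held Lef1 and Tcf7 T cells, had 8 and 43 Il1r2 UMIs. Il1r2 was the 1 member called higher in NK cells, in B cells and in the endothelial-like class (21.8 and 48.6 CPM), and the granulocyte gene S100a8 was at 34.4 and 125 CPM in B cells and 6.09 and 517 CPM in endothelial-like cells. In B cells the interval of the log2 ratio, -0.29 to 1.58, included 0. The part of granulocyte RNA in these 3 values was not tested.

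Of the Il1r1 UMIs of the T cell class, 58.3% in Ctrl and 75.5% in KD came from 1 small sub-cluster. The gamma-delta-like cells, led by Il17a and Il1r1 and named from T cell receptor delta and related genes, were 20 cells in Ctrl and 12 in KD, and they held 42 of the 72 Ctrl and 37 of the 49 KD Il1r1 UMIs of the T cell class. Their Il1r1 level was 620 and 671 CPM, and 0 Il1r2 UMIs were found in them in either library. The class level of Il1r2 would bring few UMIs to so few cells. The remaining Il1r1 UMIs lay elsewhere, 12 and 4 of them in the S100a9-led and 5 and 3 in the Tnfsf8-led cells.

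**Figure D4:**
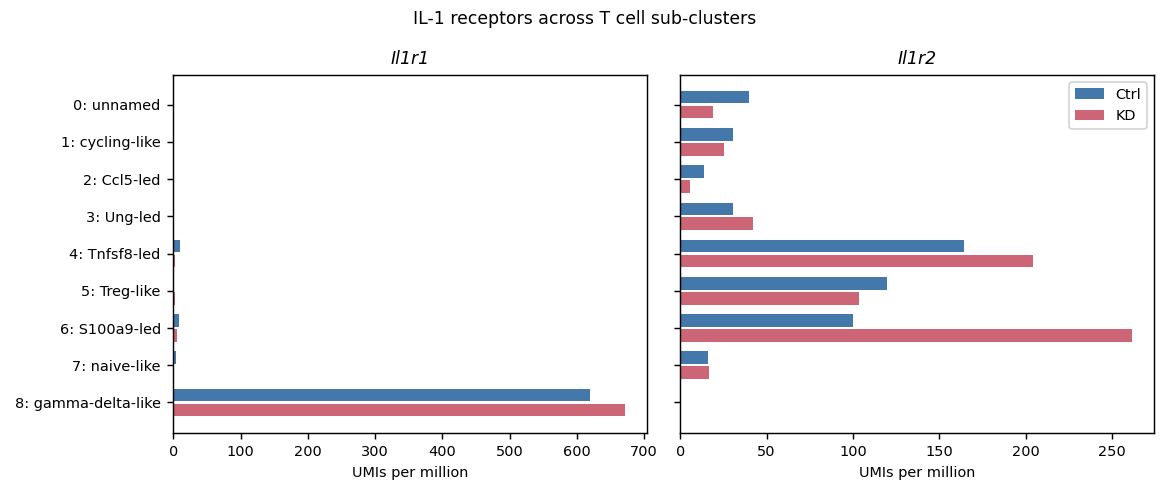
Bars give the CPM of Il1r1 and Il1r2 in T cell sub-clusters of the Ctrl and KD libraries, where each sub-cluster is named by its markers or its leading gene and 1 sub-cluster led by Ncr1, with 6 Ctrl and 19 KD cells, is left out. Il1r1 stands out in the gamma-delta-like cells at 620 and 671 CPM, and Il1r2 in the Tnfsf8-led, Treg-like and S100a9-led cells.

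Il18 and its binding protein had their highest levels in Kupffer-like cells. Il18 was at 170.0 CPM (133 to 214) in Ctrl and 262 CPM (223 to 307) in KD, in 64.6% and 61.0% of Kupffer-like cells before thinning and 20.9% and 25.6% after it. Il18bp was at 387 CPM (330.1 to 451) and 426 CPM (375 to 481) there. Macrophages had Il18 at 46.7 CPM (44.1 to 49.4) and 43.3 CPM (40.7 to 46.0), a log2 ratio of -0.11 (-0.23 to 0.01), while their Il18bp was at 83.6 CPM (80.2 to 87.2) and 45.2 CPM (42.6 to 48.0), a log2 ratio of -0.89 (-0.99 to -0.78). The macrophage cytokine thus differed little and its binding protein was lower in KD, and Il18 per UMI of Il18bp was 0.558 (0.520 to 0.599) in Ctrl and 0.958 (0.879 to 1.04) in KD. In granulocytes both were lower, Il18 at 43.0 and 15.4 CPM (log2 ratio -1.48, -1.91 to -1.04) and Il18bp at 77.7 and 24.6 CPM (-1.66, -1.98 to -1.33, or -0.55 averaged within sub-clusters), so that their ratio was 0.553 and 0.626. These granulocyte values rest on 78 and 112 UMIs of Il18. In Ctrl the intervals of macrophages and granulocytes overlapped for both genes, and in KD the Il18 interval of the tumor- or fibroblast-like cells (28.4 to 50.5) overlapped that of macrophages, so their order is not resolved.

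In cDCs the pair moved in opposite directions. Il18 was at 11.7 CPM (8.02 to 16.6) in Ctrl and 30.7 CPM (26.1 to 35.9) in KD, a log2 ratio of 1.39 (0.83 to 1.98) from 32 and 160 UMIs, and it was the 1 member called higher. Il18bp was at 30.8 and 12.1 CPM, a log2 ratio of -1.35 (-1.84 to -0.86), and Il18 per UMI of Il18bp was 0.381 (0.245 to 0.579) and 2.54 (1.89 to 3.46). The share of cDCs with an Il18 UMI was 6.81% and 18.2%, and 1.68% and 4.39% after thinning, where the median cDC held 6405.5 and 8399.5 UMIs. Il18 was seen in 0.276% and 0.266% of thinned T cells, whose medians were 7112 and 5809 UMIs. Among cDCs with a UMI of Xcr1 or Clec9a, markers of the cross-presenting cDC subset, Il18 was at 12.3 CPM in Ctrl and 51.4 CPM in KD, a log2 ratio of 2.06 (1.32 to 2.90) from 17 and 107 UMIs. Among the other cDCs it was at 11.1 and 16.9 CPM, a log2 ratio of 0.60 (-0.24 to 1.54). Il18bp was lower in KD in both, with log2 ratios of -1.36 and -1.43. This split was chosen after the values were seen. Macrophage marker RNA in cDCs was alike in both libraries, 1122 and 1166 CPM summed over the macrophage list, and granulocyte marker RNA was at 97.5 and 688 CPM.

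Nlrp3, the inflammasome sensor, was highest in granulocytes, at 1232 CPM (1182 to 1284) in Ctrl and 565 CPM (547 to 582) in KD, a log2 ratio of -1.13 (-1.20 to -1.05), or -0.56 averaged within sub-clusters. Thinned shares of granulocytes with a UMI were 69.6% and 46.9%, beside 0.830% and 1.51% of B cells. Macrophages held 238 CPM (232 to 244) and 202 CPM (196 to 208), a log2 ratio of -0.24 (-0.29 to -0.18), and cDCs 111 and 119 CPM. In the tumor- or fibroblast-like class Nlrp3 was at 63.6 CPM (53.1 to 75.5) and 22.2 CPM (14.9 to 31.9), from 129 and 29 UMIs in 161 and 95 cells, the 1 member called there. Il1b stood at 141 and 149 CPM in the same class.

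The macrophage class was not uniform, and most of its Il1a came from few cells. An inflammatory-like sub-cluster of 351 Ctrl and 295 KD cells, named from Nos2, Cxcl2, Cxcl3, Ccl3, Ccl4, Tnf and Ptgs2, held 59.4% and 62.8% of the macrophage Il1a UMIs and 36.2% and 42.1% of the Il1b UMIs. Its Il1a level was 694 CPM in Ctrl and 599 CPM in KD, and its Il1b level was 10314 and 8001 CPM, above the levels of the granulocyte class. Il1rn there was at 916 and 452 CPM, a log2 ratio of -1.02 (-1.12 to -0.92), beside -0.37 (-0.39 to -0.34) for Il1b and -0.20 for Nlrp3. Outside it, Il1a lay between 19.7 and 58.2 CPM in the C1q-like, interferon-like, Cadm1-led, monocyte-like and cycling-like cells. The monocyte-like cells, named from genes such as Vcan and Chil3, combined Il1b at 3244 and 2689.8 CPM with Il1a at 28.3 and 27.6 CPM.

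In all 6 macrophage sub-clusters with at least 50 cells in each library, the Il1rn and Il18bp levels were lower in KD. For Il1rn the log2 ratio ran from -1.38 (-1.68 to -1.08) in monocyte-like cells to -0.29 (-0.66 to 0.07) in the Cadm1-led cells, whose interval included 0. For Il18bp it ran from -1.35 in the Cadm1-led cells and -1.07 (-1.23 to -0.90) in the C1q-like cells to -0.51 in the interferon-like cells, and the interval of the monocyte-like cells, -0.54 (-1.28 to 0.19), included 0. Il1r2 was split, with 1.44 (1.11 to 1.77) in monocyte-like cells, where it was at 42.5 and 115 CPM, and -0.41 in interferon-like cells. Il1b was lower in KD in 5 of the 6 and at 0.26 in the Cadm1-led cells. The makeup of the class differed as well: C1q-like cells were 600 in Ctrl and 1043 in KD, and interferon-like cells 1270 and 233. Ltc4s-led cells were 10 and 342, too few in Ctrl for a ratio, with Il1rn at 31.9 CPM in KD. Each sub-cluster was compared with itself, so those shares do not enter the ratios of this paragraph.

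**Figure D5:**
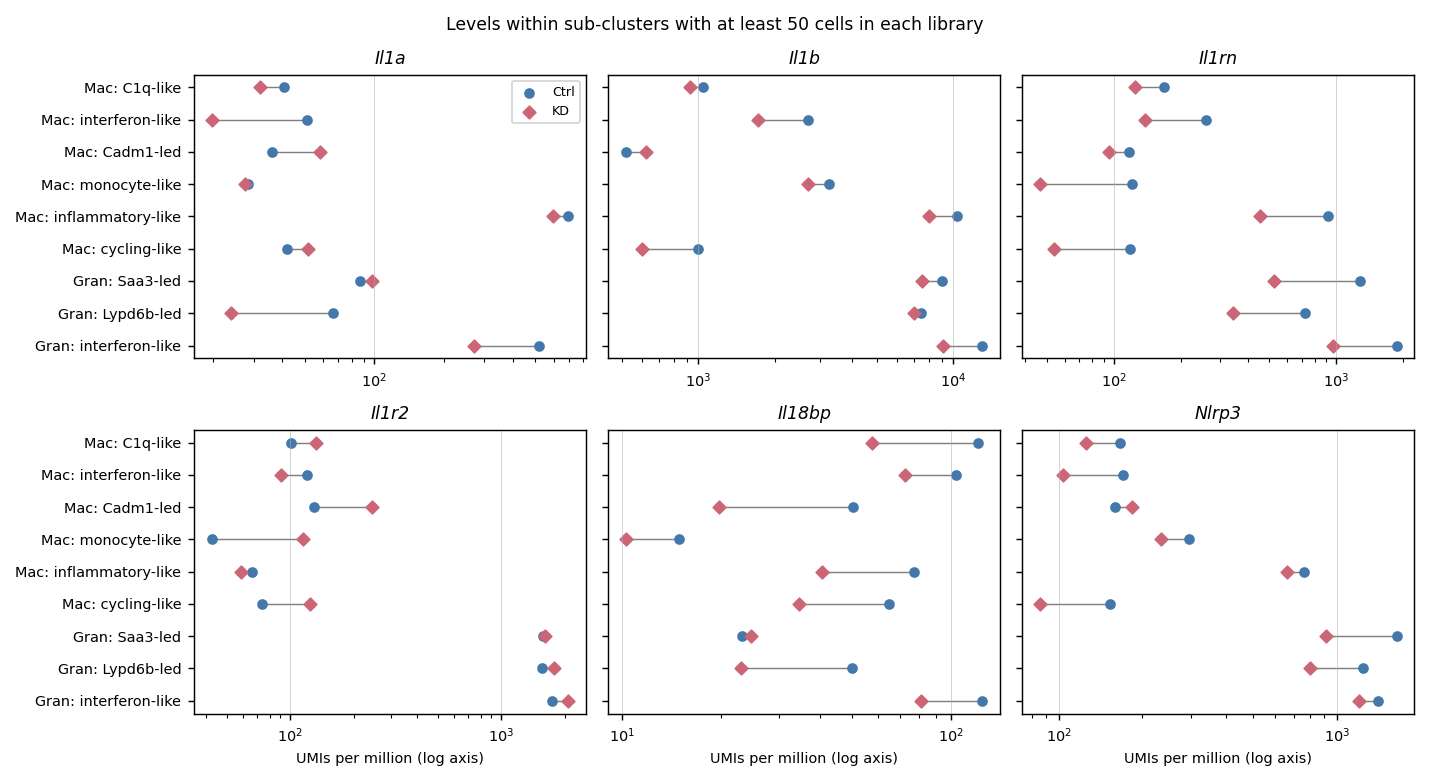
CPM of members in macrophage and granulocyte sub-clusters with at least 50 cells in each library, Ctrl and KD points on log axes. The inflammatory-like macrophages hold the highest macrophage levels of Il1a and Il1b, and Il1rn is lower in KD in each macrophage sub-cluster shown.

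Within granulocyte sub-clusters several ratios were smaller than in the class. The interferon-like granulocytes, 432 cells in Ctrl and 122 in KD, held 90.4% of the Ctrl granulocyte Il1a UMIs and 21.2% of the KD ones, and had the highest levels of Il1a (518 and 270.1 CPM), Il1b (13015 and 9155 CPM) and Il1rn (1867 and 967 CPM). Within them the log2 ratio was -0.94 (-1.29 to -0.60) for Il1a, -0.51 for Il1b, -0.95 for Il1rn and -0.23 for Nlrp3. The Saa3-led cells, 86 and 781, had Il1a at 87.2 and 97.7 CPM, a log2 ratio of 0.16 (-0.59 to 1.03), and Il1rn at 1284 and 526 CPM, a log2 ratio of -1.29 (-1.50 to -1.07). The Lypd6b-led cells, 170 and 393, had Il1b at 7473 and 7019 CPM and Il1rn at 727 and 343 CPM. Their Il1a was at 66.3 and 23.9 CPM, from 29 and 25 UMIs. Il1rn was thus lower in KD by at least 1.5-fold in each of the 3 sub-clusters with 50 cells in each library, while Il1b lay within 1.5-fold in each. Il1r2 had log2 ratios of 0.03, 0.20 and 0.25 in these 3. Averaged over sub-clusters, the log2 ratio within a sub-cluster was -0.29 for Il1b, -0.75 for Il1a and -1.11 for Il1rn. With Il18 at -0.92, 3 members were lower by at least 1.5-fold, but Il18 rests on few UMIs and its interval included 0 in each sub-cluster. The Il1a interval included 0 in the Saa3-led cells. Immature-like granulocytes, led by Camp and Ltf, were 43 and 193 cells and had the lowest Il1b, 2596 and 955 CPM. Mature-like granulocytes, led by Prok2, were 20 and 619 cells, with Il1a at 26.8 and 17.0 CPM and Il1rn at 349 and 132 CPM.

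The members were also found together in single cells. Among thinned Ctrl macrophages, Il1b was seen in 87.0% of cells with Il1a and 56.9% of cells without it, and in KD in 79.7% and 50.8%. Il1rn was seen in 48.1% of Ctrl macrophages with Il1a and 20.9% of those without, and in KD in 28.4% and 11.5%. Nlrp3 was seen in 30.1% of Ctrl macrophages with Il1b and 14.3% of those without, and in KD in 28.0% and 10.5%. Il18 and Il18bp were different: 0.496% of Ctrl macrophages held both, where the product of their single shares was 0.617%, and in KD the values were 0.374% and 0.366%. In granulocytes Il1rn was seen in 61.9% of Ctrl cells with Il1b and 17.4% of those without, and in KD in 29.8% and 9.63%. Among granulocytes with Il1b, the share with Il1rn was thus lower in KD. Il1b was seen in 96.5% of Ctrl and 90.8% of KD thinned granulocytes, so this share is close to that of the class. As 628 of 651 thinned Ctrl granulocytes held Il1b, the Ctrl share among those without it rests on few cells. Interferon-like cells were 55.7% of Ctrl and 5.49% of KD granulocytes, and the split by Il1b does not separate that makeup.

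Over the 18 sums of 9 cell classes in each library, the members fell into groups by their pattern of log2(CPM + 1). Kupffer-like cells, with 48 Ctrl cells, were not among the 9 classes. Il1b and Nlrp3 were most alike (Pearson r = 0.97), followed by Il1rn and Nlrp3 (0.95) and Il1b and Il1rn (0.94), and Il18 and Il18bp had r = 0.85. Il1r1 had r between -0.29 and 0.39 with the other members. Of 8745 other genes, Clec4n, Treml4 and Sirpb1b were most like Il1b (0.98, 0.97 and 0.97), Tnfaip2, Ptgs2 and Clec4n most like Nlrp3 (0.97, 0.96 and 0.95), and Lst1, Acod1 and Sod2 most like Il1rn (0.94 for Lst1). Ptprm, Prkg1 and Slco2a1 were most like Il1r1 (0.98 each), and Cass4, Ifitm6 and Mapk13 most like Il1r2 (0.93 for Cass4). Cflar, Socs3 and App were most like Il1a (0.91, 0.90 and 0.89), Bri3, Ftl1 and Cyfip1 most like Il18 (0.91 for Bri3), and Ifi204, Ifitm3 and Ninj1 most like Il18bp (0.97, 0.94 and 0.93). The points share libraries and depths, and these values are descriptions.

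Of the 59 other genes of the pathway, 41 were measured in granulocytes, where 17 were lower and 8 higher, beside 15.0% and 21.0% of all genes, so the count of higher genes is near the background. Of 9 measured IL-1 response genes 8 were lower in KD granulocytes and 1 was higher, with a median log2 ratio of -0.93. Il6, an inflammatory cytokine, had a log2 ratio of -4.10 (25.9 and 1.51 CPM), Csf3, a granulocyte growth factor, -2.23, Ptgs2, the enzyme cyclooxygenase-2, -1.59, and the neutrophil chemokines Cxcl1 and Cxcl2 -0.93 and -0.80. Lcn2, a granule gene of neutrophils, was the 1 higher, at 1.34. In macrophages 3 of 9 response genes were higher (Lcn2 3.41, Il6 1.35 and Cxcl1 0.99) and Ptgs2 was lower (-0.63), and over the 51 measured pathway genes 11 were higher and 2 lower, with a median of 0.06, beside 6.43% and 9.58% of all genes. In the same macrophages S100a8, a granulocyte gene, was at 105 CPM in Ctrl and 724 CPM in KD. The list of serine proteases (Elane, Ctsg and Prtn3) and their inhibitor (Serpinb1a) had 4 of 4 genes higher there, with a median of 2.77. In granulocytes only 2 of these 4 genes were measured, and 2 were higher. Prtn3 was a leading gene of the Vcan-led monocyte cluster, which is part of the macrophage class. Serpinb1a was a leading gene of the immature-like granulocytes. Il6 and Cxcl1 were leading genes of a Pf4-led macrophage cluster of 16 Ctrl and 589 KD cells. What part that cluster or granulocyte RNA has in these macrophage values was not tested.

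Among the genes that process the cytokines, of 11 measured inflammasome adaptors, caspases and pore genes 0 were called in macrophages, beside 16.0% of all genes there (6.43% higher and 9.58% lower). Pycard, the adaptor ASC, was at -0.08, Casp1 at -0.30 and Gsdmd, the pore protein gasdermin D, at 0.02. In granulocytes, where 21.0% of all genes were called higher and 15.0% lower, 3 of 9 were higher (Gsdme 2.39, Pycard 0.96 and Nek7 0.66) and 4 were lower (Casp8 -1.50, Ninj1 -1.28, Casp4 -0.70 and Casp1 -0.68). Of 11 receptor signalling genes 0 were called in macrophages, beside the same 16.0% of all genes, and in granulocytes Irak2 (-1.13) and Nfkb1 (-1.12) were lower and Irak1 (0.69) was higher. The receptor partner Il1rap was at 0.66 in macrophages and 0.38 in granulocytes. In the endothelial-like cells, which held most of the Il1r1, 4 of 7 response genes were lower in KD, beside 9.62% of all genes (Cxcl1 -2.37, Nfkbiz -1.31, Tnfaip3 -0.80 and Ptgs2 -0.60), and Lcn2, with 0 UMIs in Ctrl, was higher. In the tumor- or fibroblast-like class 7 of 7 response genes were lower, beside 18.2% of all genes, with a median of -1.29, and Il33, another ligand of the family, had a log2 ratio of -2.39.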

How the data were processed

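Liver metastases of mice bearing MC38-LM3b cells with shScramble (Ctrl) or the SLAMF3 hairpin (KD) were profiled with 10x Genomics 3′ v3.1 chemistry, 1 library of 3 pooled mice each. The authors deposited raw UMI counts per gene and cell, and the submitters' processing notes name Cell Ranger 7.1.0, Seurat 5.1.0, R 4.4.1 and GRCm39. The deposited barcodes held at least 500 UMIs.

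The limits of the study were applied to each barcode: no fewer than 200 genes, and no more than 6000 genes, 30000 UMIs or 10% mitochondrial UMIs. Cells were clustered with Seurat 5.3.0 (2000 variable genes without the members and pathway genes, 20 components, resolution 0.5) and named from marker lists (at least 3 markers). Cells with the highest Scrublet scores (scanpy 1.11.5), 771 in Ctrl and 830 in KD at 0.8% per 1000 cells, were taken as likely doublets, kept, and left out in an alternative. UMIs were summed per class and library. Levels have exact Poisson, shares exact Clopper-Pearson and ratios exact conditional binomial 95% intervals. Ratios needed 50 cells per library. With 1 library per group no test was run. The ratio script was checked on simulated counts.

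The members, lists and motifs were chosen with earlier results of these data known. Named genes were the members, the pathway list, Ly9, class markers, leading genes of clusters and the 3 genes most like each member. Alternatives covered cell filters, doublets, resolution, integration, variable genes, class assignment, scaling, thinning, cell weights, sub-clusters and call thresholds.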

Additional observations from a re-analysis of the deposited data

Results flagged for a closer look

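Il18 differed between the libraries in opposite directions in 2 cell classes, with a log2 ratio of KD to Ctrl of -1.48 in granulocytes and 1.39 in cDCs. With 1 library per group the difference between the classes was not tested. The granulocyte value rests on 78 and 112 UMIs and the cDC value on 32 and 160 UMIs.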

How the results depend on the processing

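No paired analysis was possible because each group has 1 library, and no library could be left out. Over 12 alternatives the KD level of Il1rn was lower by at least 1.5-fold in macrophages (log2 ratio -1.06 to -0.78) and granulocytes (-2.28 to -1.11) in all 12, as were Il18bp in macrophages (-0.91 to -0.81) and Il1a in granulocytes (-2.53 to -0.75). In cDCs Il18 (1.35 to 1.98) and Il18bp (-2.08 to -1.28) were past 1.5-fold in all 11 alternatives, which were added after the data were seen. Il1b in macrophages was -0.39 with stricter cell filters, -0.40 with RPCA integration, -0.31 with TMM scaling, -0.34 with thinned cells, -0.27 with each cell weighted equally, -0.25 without sub-clusters of 1 library and -0.32 as the mean within sub-clusters. Il1b in granulocytes was -0.91 without doublets, -0.92 with TMM, -0.80 thinned, -0.79 with equal weights, -1.24 without sub-clusters of 1 library (2 of 6 here) and -0.29 within sub-clusters. Il1r2 in granulocytes turned to 0.16 within sub-clusters. In T cells Il1r1 changed sign to -0.16 with equal weights and -0.014 within sub-clusters (2 sub-clusters of few UMIs), and Il1r2 to -0.29 within sub-clusters. Members higher in KD macrophages numbered 1 when thinned and 1 within sub-clusters, and members lower there 0 at 2-fold. Members lower in granulocytes numbered 3 within sub-clusters, with Il18 among them from few UMIs. Members higher in T cells numbered 1 without doublets, with classes assigned cell by cell, thinned, with equal weights or with at least 200 UMIs, and 0 within sub-clusters or at 2-fold, and members lower there numbered 2 with classes assigned cell by cell and 1 within sub-clusters. The cause was not tested. Depth limits Il1r1 in granulocytes and macrophages and Il18 in lymphoid cells, which had few UMIs.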
